A study of Homo sapiens with 14 samples.

Results

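The mitochondrial genome encodes 3 subunits of cytochrome c oxidase (MT-CO1, MT-CO2 and MT-CO3), cytochrome b of complex III (MT-CYB) and the membrane subunits of ATP synthase (MT-ATP6 and MT-ATP8). The mRNAs of these 6 genes were taken from the deposited profiles as every transcript identifier that GENCODE gives 1 of these gene names, which yielded 1 transcript per gene, 6 in all out of 20512 transcripts of 6714 named genes. Each of the 6 was scored in all 4 profiles.

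The study probed RNA structure in K562, an established human erythroleukemia line, with a pair of azide-bearing reagents that are clicked to biotin and enriched, so that reverse transcription stops mark modified nucleotides. NAI-N3 acylates the 2′-hydroxyl of flexible nucleotides and gives icSHAPE, and NAz-N3, activated by light, marks the solvent-accessible C8 position of purines and gives icLASER. For icSHAPE, 3 in vivo and 2 in vitro libraries carried NAI-N3 (100 mM, 5 min) and were set against 3 DMSO libraries, and for icLASER, 2 in vivo and 2 in vitro libraries received NAz-N3 from a 1 M stock with 10 min of UV and were set against 2 controls without UV. In vivo means reagent added to living cells, and in vitro means reagent added to RNA that had been extracted from the same line and refolded, and every group therefore shares the cell line and the absence of any genetic change. The authors pooled replicates and controls into 1 profile for each reagent and condition, so no value below has a replicate error, no p-value is given, and differences are set beside the same quantity over all transcripts.

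Human mitochondrial DNA is transcribed as long polycistronic RNAs, from which excision of the intervening tRNAs releases most of the mRNAs. No tRNA lies between MT-ATP6 and MT-CO3, whose annotated transcripts overlap by 1 nt. The mitochondrial mRNAs carry almost no leader, are translated by mitochondrial ribosomes in the matrix, and receive a short poly(A) tail that completes the stop codon of several of them. Their products form the membrane core of the respiratory chain complexes, joined there by many subunits made from nuclear mRNAs.

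All 6 lie on the plus strand of the GRCh38 mitochondrial chromosome and consist of coding sequence from the first to the last nucleotide. MT-CO1 (ENST00000361624, chrM:5904-7445) is 1542 nt long, MT-CO2 (ENST00000361739, chrM:7586-8269) 684 nt, MT-CO3 (ENST00000362079, chrM:9207-9990) 784 nt, MT-CYB (ENST00000361789, chrM:14747-15887) 1141 nt, MT-ATP6 (ENST00000361899, chrM:8527-9207) 681 nt and MT-ATP8 (ENST00000361851, chrM:8366-8572) 207 nt. MT-CO3 and MT-CYB each end 1 nt into a stop codon that only the tail completes, whereas the other mRNAs end with a whole codon. The 6 sequences were poor in G, from 6.28% in MT-ATP8 to 16.2% in MT-CO1, and MT-ATP8 was the richest in A with 38.6%.

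The reading frames of MT-ATP8 and MT-ATP6 overlap on 1 bicistronic mRNA, shown here because the same nucleotides appear in 2 rows, the entries of 2 transcripts, of every profile. The overlap covers 46 nt, chrM:8527-8572 on the plus strand, with the MT-ATP6 frame displaced by 2 nt from that of MT-ATP8. In the sequence of the whole overlap (GRCh38, 5′ to 3′), capitals mark the start codon of MT-ATP6 and the stop codon of MT-ATP8. In the sequence of its beginning, capitals mark the 10 nt, chrM:8533-8542, that carry a score in both rows, since the first 6 and the last 30 nt of each transcript are unscored.
overlap of both frames: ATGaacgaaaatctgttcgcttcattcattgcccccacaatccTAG
beginning of the overlap: atgaacGAAAATCTGT

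K562 markers checked the source of the RNA. Of 9 erythroid and K562 markers, 8 were present, led by the fetal globin HBG1 with up to 2652 RPKM (reads normalized to transcript length and library size), and none of 8 markers of T cells, B cells and myeloid cells passed the lower limit of about 5 RPKM that the profiles carry.

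The mRNAs of the oxidase subunits were among the most abundant transcripts of every profile. MT-CO3, a core subunit without metal centers, had 19330 RPKM in icSHAPE in vivo, 12167 in icSHAPE in vitro, 14872 in icLASER in vivo and 10405 in icLASER in vitro. MT-CO2, which holds the copper center that receives electrons from cytochrome c, had 13407, 8341, 13861 and 9151 RPKM in the same order. MT-CO1, which holds the site where oxygen is reduced, was lower, with 3659, 1996, 4605 and 3737 RPKM. The mRNAs of 1 enzyme thus differed in level, with MT-CO2 exceeding MT-CO1 by 2.45-fold to 4.18-fold over the 4 profiles.

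MT-CYB, the heme protein of complex III, had 2786 RPKM in icSHAPE in vivo, 1962 in icSHAPE in vitro, 3410 in icLASER in vivo and 2261 in icLASER in vitro, and it was the lowest of the 6 in 4 of 4 profiles. MT-ATP6, which forms the proton path of ATP synthase, had 6764, 4223, 10109 and 6697 RPKM in that order. MT-ATP8, a small membrane subunit of the same enzyme, had 9317, 5945, 6696 and 5071 RPKM. The order of these last rows depended on the reagent, since MT-ATP8 stood at 1.38-fold and 1.41-fold of MT-ATP6 with icSHAPE in vivo and in vitro but at 0.662-fold and 0.757-fold with icLASER.

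MT-CO3 was the third most abundant transcript of icSHAPE in vivo and the second of icLASER in vivo, and MT-CYB ranked 29 of 16295 and 21 of 16648 in those profiles. The highest member exceeded the lowest by 4.36-fold to 6.94-fold. Without replicates, neighbours in this order such as MT-CO3 and MT-CO2 cannot be told apart beyond the values themselves.

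RPKM was higher in vivo than in vitro for 6 of 6 mRNAs with both reagents. With icSHAPE the ratio was 1.83 for MT-CO1, 1.61 for MT-CO2, 1.59 for MT-CO3, 1.42 for MT-CYB, 1.60 for MT-ATP6 and 1.57 for MT-ATP8. With icLASER it was 1.23 for MT-CO1, 1.51 for MT-CO2, 1.43 for MT-CO3, 1.51 for MT-CYB, 1.51 for MT-ATP6 and 1.32 for MT-ATP8. A ratio above 1.5 was thus reached by 5 of 6 mRNAs with icSHAPE, where 4.1% of 11713 transcripts did so, and by 3 of 6 with icLASER, where 13.9% of 13809 did. No member was below 1 over 1.5, which 4.72% and 5.61% of the transcripts were. The median over the members was 1.60 and 1.47, against 1.10 and 1.08 over all transcripts.

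The mitochondrial rRNA MT-RNR1 moved the other way, with ratios of 0.504 for icSHAPE and 0.366 for icLASER, and MT-RNR2 had 1.13 and 0.922. Of the 7 mRNAs for NADH dehydrogenase subunits, 3 passed 1.5 with icSHAPE, among them MT-ND4 with 1.82, and 2 with icLASER, where MT-ND6 was below 1 over 1.5 with 0.580. Among nuclear mRNAs (the most abundant transcript of each gene) for subunits of the same complexes, 0 of 9 in complex III, 0 of 11 in complex IV and 0 of 15 in complex V passed with icSHAPE, and 1, 3 and 3 passed with icLASER. None of the 6 mRNAs for mitochondrial RNA factors in both icSHAPE profiles passed, and 0 of the 8 in both icLASER profiles. RPKM is relative to all mapped reads, so a higher share of these mRNAs and a lower share of other RNAs cannot be told apart. The libraries were made from poly(A)-selected RNA, and those with reagent were enriched for labelled fragments. The part of either step in these ratios was not tested.

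The nuclear subunit mRNAs, taken as 1 transcript per gene, were far lower. In icSHAPE in vivo their medians were 72.9 RPKM for complex III, 115 for complex IV and 95.8 for complex V, and the median over the 6 mitochondrial mRNAs was 8040 RPKM. The extremes were 866 RPKM for COX8A and 8.77 RPKM for ATP5F1D, and each of these nuclear transcripts lay below the lowest member in that profile. Nuclear genes had up to 19 transcripts (ATP5F1A), whereas each member had 1, so the reads of a nuclear gene may be split over rows. The same transcript of ATP5F1D, a gene with 9, had 51.8 RPKM in icLASER in vivo. Totals per gene were not compared, so the gap applies to single transcripts. The mRNA of SLIRP, a stem-loop binding partner of the mitochondrial mRNA stabilizer LRPPRC, had 55.2 RPKM. By 1 transcript per gene, it was the highest of the 9 detected RNA factors.

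The RPKM and scores of the members may include reads of nuclear copies of mitochondrial DNA, since how reads matching several transcripts were assigned is not given in the sources used here. Of 187 annotated nuclear copies of these 6 genes, 19 had a row in some profile and 14 had 1 in all 4. The copies on chromosome 1 were the closest, with 1522 of 1542 aligned nucleotides identical between MTCO1P12 and MT-CO1, 671 of 681 between MTATP6P1 and MT-ATP6, 670 of 682 between MTCO2P12 and MT-CO2, 537 of 547 between MTCO3P12 and MT-CO3 and 202 of 207 between MTATP8P1 and MT-ATP8. Their RPKM stood at 8.13% to 45.6% of that of the matching mRNA, whereas the other 14 copies did not exceed 13.0%.

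MTATP6P1 was the highest in relation to its gene, with 2839 RPKM in icSHAPE in vivo, 42.0% of MT-ATP6. No copy of MT-CYB came near this, with 173 RPKM or 6.20% for MTCYBP18 in the same profile. Scores at aligned nucleotides correlated with those of the mitochondrial mRNA by r of 0.101 to 0.516 for the 5 copies on chromosome 1, the highest of them MTCO1P12 in icLASER in vitro. The levels of these 5 members are therefore uncertain by an amount that the profiles do not show, and what share of the reads of each row came from the other locus was not tested.

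The scores of the 6 mRNAs were dense. From nt 7 to 30 nt before the end, all 4823 nucleotides of the 6 mRNAs were scored in every profile. Scores of exactly 0 made up 9.76% to 16.5% of positions in icSHAPE in vivo and 5.12% to 5.91% in icLASER in vivo, where the median transcript had 46.2% and 51.9%. How many reads stand behind a score cannot be read from the files.

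The scores, an enrichment of stops over the control, run from 0 to 1. In each member 5.05% to 5.26% of the positions were at exactly 1 in every profile, which is also the median share over all transcripts, so the top of the scale is set within each transcript. The share at exactly 0 was not below 5.12% in any member. In MT-ATP6 in icLASER in vivo it equalled the share at 1, with 5.12% for each. A score of 0 therefore need not mean no enrichment of stops over the control. A mean score compares the shape of a profile rather than an absolute reactivity.

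Mean scores lay in a narrow band. MT-CO1 had 0.207 in icSHAPE in vivo, 0.222 in icSHAPE in vitro, 0.224 in icLASER in vivo and 0.193 in icLASER in vitro. MT-CO2 had 0.198, 0.191, 0.228 and 0.201, and MT-CO3 had 0.219, 0.210, 0.233 and 0.221 in the same order. MT-CYB had the highest means in 3 profiles, with 0.244, 0.229, 0.256 and 0.226.

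For the ATP synthase subunits, MT-ATP6 had 0.212, 0.213, 0.227 and 0.198, and MT-ATP8 had 0.261, 0.223, 0.218 and 0.206. The medians over the members were 0.216, 0.217, 0.227 and 0.204, above the medians of 0.168, 0.142, 0.157 and 0.153 over all transcripts with at least 100 scored positions. The lower share of zeros in the members moves with this difference, and its part in it was not tested. For the 7 NADH dehydrogenase mRNAs the medians were 0.214, 0.216, 0.258 and 0.218.

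Reactive positions, with a score of at least 0.5, made up 15.4% of the members' positions in icSHAPE in vivo (Wilson 95% interval 14.5% to 16.5%), 14.7% in icSHAPE in vitro (13.7% to 15.7%), 15.0% in icLASER in vivo (14.0% to 16.0%) and 13.2% in icLASER in vitro (12.2% to 14.1%). The intervals cover the counting of positions only. Over all transcripts the shares were 11.9%, 11%, 11.1% and 11%. Among the members, MT-ATP8 was the most reactive in icSHAPE in vivo with 19.9%, and MT-CYB in icLASER in vivo with 18.1%, while MT-CO3 had 13.4% there.

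The mean score changed little between cells and refolded RNA. With icSHAPE, the mean in vivo less that in vitro came to -0.0150 for MT-CO1, 0.00720 for MT-CO2, 0.00914 for MT-CO3, 0.0155 for MT-CYB, -0.000395 for MT-ATP6 and 0.0385 for MT-ATP8. The median was 0.00817, and over 11499 transcripts it was 0.0243. With icLASER, the difference was positive for 6 of 6, at 0.0307 for MT-CO1, 0.0270 for MT-CO2, 0.0124 for MT-CO3, 0.0292 for MT-CYB, 0.0295 for MT-ATP6 and 0.0116 for MT-ATP8, with a median of 0.0281 against 0.00781 over 13593 transcripts. The icLASER difference was also positive for 9111 of these 13593 transcripts and for 7 of 7 NADH dehydrogenase mRNAs. Over A and G alone the icLASER median of the members was 0.00943. By base, the members' icLASER mean in vivo and in vitro was 0.135 and 0.0923 at C, 0.173 and 0.139 at U, 0.304 and 0.288 at A, and 0.435 and 0.442 at G, so C and U gained most and G, the highest base, did not gain.

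No member passed a difference of 0.05 in either direction with either reagent. Above 0.05 were 9.58% of transcripts with icSHAPE and 1.93% with icLASER, and below -0.05 were 0.0696% and 0.861%. MT-CO1 stood at percentile 2.61 of the icSHAPE differences and at percentile 90.2 of the icLASER differences, the widest split among the 6. The sign of the small icSHAPE median depends on the scale, since it became -0.150 when each profile was divided by its own mean over all transcripts.

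The rRNAs from the same compartment had larger icSHAPE differences in the negative direction, -0.0297 for MT-RNR1 and -0.0383 for MT-RNR2, with 0.0319 and 0.0225 for icLASER. Of the 7 NADH dehydrogenase mRNAs, MT-ND3 alone passed 0.05, with 0.0518 for icLASER.

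Along the mRNAs the difference was not even. Splitting the scored stretch at its middle, the icLASER difference was 0.00294 in the 5′ portion and 0.0585 in the 3′ portion of MT-CO1, -0.0461 and 0.0710 in MT-CO3, -0.0464 and 0.104 in MT-CYB, and 0.00246 and 0.0567 in MT-ATP6. MT-CO2 had 0.0245 and 0.0294, and MT-ATP8 0.0160 and 0.00719. The 3′ portion was thus higher in 5 of 6 mRNAs, and the same was true of 82.2% of all transcripts, with a median gap of 0.0546 over all and 0.0549 over the members.

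With icSHAPE the 3′ portion was lower in 5 of 6, with MT-CO1 at 0.0202 and -0.0503 and MT-ATP6 at 0.0319 and -0.0327, and 47.8% of all transcripts had it higher. In MT-CO1 the last 50 scored nt were 0.116 below the middle in icSHAPE in vivo and 0.0530 above it in vitro. The 5′ end differed too, and in icLASER in vitro the first 50 scored nt exceeded the middle by 0.216 in MT-CO1, 0.190 in MT-CO2, 0.143 in MT-CO3, 0.314 in MT-CYB and 0.0156 in MT-ATP6, where the median over all transcripts was 0.0772.

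Within 30 nt windows the changes were larger. Windows started at every scored nucleotide and overlap, so the percentiles below are not ranks among separate stretches. In each of the 5 mRNAs of at least 500 nt, the windows with the lowest and the highest icSHAPE difference were taken, so the icSHAPE values describe the choice, and the icLASER difference of the same window was not used to choose. Of the 5 lowest windows 3 were also negative with icLASER, and of the 5 highest windows 4 were also positive. Over all windows of these mRNAs, 26.9% to 40.5% were negative and 59.5% to 73.1% positive with icLASER, and with 5 windows each nothing is read from these counts of signs. The sequences of the 5 windows with the lowest icSHAPE difference follow because these are the stretches where icSHAPE fell furthest in cells (GRCh38 plus strand, 5′ to 3′), with capitals for nucleotides that reached a score of 0.5 in icSHAPE in vitro.
MT-CO1, chrM:7359-7388: GaagAaccctccatAAACctggagtGacTa
MT-CO2, chrM:7646-7675: AtCacctTtcatgatCacgccctCAtAAtC
MT-CO3, chrM:9463-9492: tTaTTacCTCagaagttttTTtcTtcGcag
MT-CYB, chrM:15766-15795: acaaccaGTaagctaccCttTTAccAtCAt
MT-ATP6, chrM:8860-8889: ACAGTGATTATaggctTtcgctCTAaGATT

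In MT-CO3, as in MT-ATP6 and MT-CO2, both reagents had lower scores in vivo in the chosen window. Over nt 257 to 286 the mean icSHAPE score was 0.202 in vivo and 0.409 in vitro, a difference of -0.207 with 26 of 30 nucleotides lower in vivo. The icLASER score of the same window was 0.257 in vivo and 0.549 in vitro, a difference of -0.291 with 27 of 30 lower, and only 0.556% of the 719 windows of this mRNA were lower. Among its nucleotides, the C at nt 264 went from 1.000 in vitro to 0.222 in vivo with icSHAPE and from 0.867 to 0.3 with icLASER.

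MT-ATP6 behaved alike over nt 334 to 363, which had the highest scores of these windows. The icSHAPE mean was 0.470 in vivo and 0.616 in vitro, and the icLASER mean was 0.486 and 0.601, a difference of -0.115 at percentile 0.812 of 616 windows. In MT-CO2, over nt 61 to 90, icSHAPE gave 0.227 and 0.336 and icLASER 0.217 and 0.304, with 27 of 30 nucleotides lower in vivo by each reagent.

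In MT-CO1 and MT-CYB the reagents parted. The MT-CO1 window, nt 1456 to 1485 near the 3′ end, had the largest icSHAPE difference of these 10 windows, -0.261, from 0.385 in vitro to 0.124 in vivo, whereas icLASER gave 0.140 in vitro and 0.192 in vivo there. The MT-CYB window, nt 1020 to 1049, had 0.315 and 0.198 with icSHAPE in vitro and in vivo, and 0.191 and 0.2995 with icLASER. In both the icLASER difference was positive, 0.0522 and 0.109, at percentiles 63.3 and 79.2 of the icLASER windows of their mRNAs. The whole 3′ portions in which these windows lie had icLASER differences of 0.0585 and 0.104, so the icLASER values are not read as local changes.

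The 5 windows with the highest icSHAPE difference are shown in the same way for the stretches where icSHAPE rose furthest in cells, with capitals for nucleotides that reached 0.5 in icSHAPE in vivo.
MT-CO1, chrM:6610-6639: gatttTtcggtcaccctgaagTtTaTATtc
MT-CO2, chrM:7945-7974: cTacatacttccccCAttaTtcctagAacc
MT-CO3, chrM:9585-9614: CtagaagtcccactcCTAAaCaCAtccgTA
MT-CYB, chrM:15571-15600: aTtcgccTaCacAattctccGAtccgtccC
MT-ATP6, chrM:8624-8653: cCtcCaAATatctCatcAacAaccGactAA

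The MT-CO2 window, nt 360 to 389, rose from 0.129 in vitro to 0.269 in vivo with icSHAPE and from 0.0704 to 0.215 with icLASER, and 28 of 30 nucleotides were higher by each reagent. The MT-CO3 window, nt 379 to 408, had 0.209 and 0.350 with icSHAPE in vitro and in vivo and 0.323 and 0.446 with icLASER. The MT-CYB window, nt 825 to 854, had 0.188 and 0.321 with icSHAPE and 0.135 and 0.277 with icLASER. These 3 lay between percentiles 87.3 and 95 of the icLASER windows of their mRNAs. They lie wholly or, for MT-CO3, almost wholly in the 3′ portions of their mRNAs. The icLASER difference of that portion was 0.0294 in MT-CO2, 0.0710 in MT-CO3 and 0.104 in MT-CYB. How much of each icLASER rise is local to the window was not tested.

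In MT-ATP6, nt 98 to 127 gained 0.146 with icSHAPE and 0.0533 with icLASER. In MT-CO1, nt 707 to 736 gained 0.164 with icSHAPE, and the icLASER difference was -0.00880. For scale, the SD of the icLASER difference over all windows of an mRNA was 0.0640 to 0.0997.

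Position by position, profiles of the same reagent were alike. Pearson r between in vivo and in vitro was 0.829 for MT-CO1, 0.897 for MT-CO2, 0.832 for MT-CO3, 0.850 for MT-CYB, 0.843 for MT-ATP6 and 0.886 for MT-ATP8 with icSHAPE. It was 0.877, 0.859, 0.831, 0.818, 0.888 and 0.913 in that order with icLASER. The median over all transcripts was 0.498 and 0.562, and over the 25 other transcripts of at least 1000 RPKM in all profiles it was 0.783 and 0.778.

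Between the reagents the correlation was lower. In vivo it was 0.522 for MT-CO3, 0.588 for MT-CYB, 0.594 for MT-CO1, 0.649 for MT-CO2, 0.709 for MT-ATP6 and 0.749 for MT-ATP8. In vitro it ran from 0.491 for MT-CO1 to 0.672 for MT-ATP6. The ATP synthase mRNAs were thus the most alike between reagents in both conditions. They are also the richest in A, and the part of base composition in this was not tested. All positions of an mRNA share 1 set of libraries and their base composition, and these correlations are descriptions. The in vivo and in vitro profiles of a reagent also share their control libraries, whereas the reagents have separate controls. The part of this in the higher correlation within a reagent was not tested.

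Reactive positions of the reagents coincided in vivo 2.92 to 3.90 times as often as the product of their shares, against a median of 3.10 over 10407 transcripts. The in vivo minus in vitro differences of the reagents correlated by 0.110 in MT-CO1, 0.126 in MT-CYB, 0.228 in MT-ATP8, 0.257 in MT-CO3, 0.327 in MT-ATP6 and 0.422 in MT-CO2, where the median transcript had 0.0489. The median was 0.179 over the 25 other transcripts of at least 1000 RPKM and 0.223 over the NADH dehydrogenase mRNAs. MT-CO1 and MT-CYB lay below both.

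The level differed by base. With icSHAPE in vivo, A averaged 0.287 over the 6 mRNAs, U 0.257, C 0.159 and G 0.145. With icLASER in vivo, G averaged 0.435, A 0.304, U 0.173 and C 0.135, so at the nucleotides as deposited purines stood highest for the reagent that marks them. Scores also differed by the base that followed, and icSHAPE in vivo averaged 0.359 where A came next, 0.338 where U did, 0.0676 for C and 0.0585 for G. By next base, icLASER in vivo averaged 0.371 for A, 0.272 for U, 0.213 for G and 0.0897 for C.

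In pairs of neighbours, icSHAPE in vivo gave 0.455 at A followed by A and 0.0940 at A followed by C. In icLASER in vivo, G followed by U had 0.679 and G followed by G had 0.204. The remaining transcripts with a matching reference sequence showed the same order for the next base in icSHAPE in vivo, with 0.269 for A, 0.230 for U, 0.0781 for C and 0.0732 for G.

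Scores differed by codon position. Pooled over the members, icSHAPE in vivo averaged 0.255 at codon position 1, 0.173 at position 2 and 0.228 at position 3. The other profiles had the same order, with 0.251, 0.181 and 0.217 in icSHAPE in vitro, 0.280, 0.180 and 0.240 in icLASER in vivo, and 0.255, 0.163 and 0.204 in icLASER in vitro. Position 2 was the lowest in MT-CO1, MT-CO2, MT-CO3, MT-CYB and MT-ATP6 in each profile, whereas in MT-ATP8 position 3 was the lowest in each.

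MT-CO2 had the widest range in icLASER, with 0.290, 0.158 and 0.235 at positions 1, 2 and 3 in vivo. In MT-CO3 positions 1 and 3 were close, with 0.232 and 0.235 in icSHAPE in vivo and 0.190 at position 2. MT-ATP8, with 171 scored nt, had 0.278, 0.254 and 0.252 there. Position 3 minus the mean of the other positions had a median over the members of 0.0133 in icSHAPE in vivo, -0.00187 in icSHAPE in vitro, 0.0131 in icLASER in vivo and -0.00424 in icLASER in vitro, all within 1 SD of 0 over the 6 mRNAs, so position 3 lay between a high position 1 and a low position 2. Position 1 was the highest in 5, 6, 5 and 5 of the 6 mRNAs in the same order of profiles.

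The frame was visible in the spectrum of the scores. The power at a period of 3 nt exceeded that at all other frequencies of the same mRNA in MT-CYB in icSHAPE in vivo, in MT-CO1, MT-CO2 and MT-CYB in icLASER in vivo, and in MT-CO1 in icLASER in vitro. It was 26.7 times the mean of the other frequencies in MT-CO1 and 15.8 times in MT-CYB in icLASER in vivo. MT-CO3 reached percentiles of 80.6 to 94.1 over the 4 profiles, and MT-ATP8 19.0 to 59.5.

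Base use differed by codon position. U made up 39.7% of position 2 and 16.2% of position 3, C made up 42.2% of position 3, and G made up 22.5% of position 1 but 5.78% of position 3. After each score was set against the mean of the same pair of scored and next base in the same mRNA and profile, position 2 still lay below the others, at -0.0447 in icSHAPE in vivo, -0.0408 in icSHAPE in vitro, -0.0359 in icLASER in vivo and -0.0285 in icLASER in vitro. Position 1 lay at 0.0239, 0.0268, 0.0193 and 0.0187 in that order, and position 3 at 0.0208, 0.0139, 0.0166 and 0.00969. Position 1 was then the highest in 3, 5, 3 and 4 of the 6 mRNAs, and position 3 in 3, 1, 3 and 2. The lead of position 1 over position 3 was thus smaller after the adjustment than the low position 2. This adjustment was chosen after the data had been seen.

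Nuclear coding sequences had a high position 1 and a low position 2 as well. Over 1017 nuclear mRNAs with at least 300 scored coding nt in each profile, the median was 0.233, 0.161 and 0.188 at positions 1, 2 and 3 in icSHAPE in vivo, and position 1 was the highest in 90.4% and position 2 the lowest in 74.8% of them. In icLASER in vivo the shares were 72.6% and 87.6%. The median range between codon positions over the members was 0.0870 in icSHAPE in vivo and 0.104 in icLASER in vivo, at percentiles 64.6 and 83.4 of the nuclear ranges. With the same adjustment the members' range was 0.0719 and 0.0631, at percentiles 91.3 and 91.7. All 7 NADH dehydrogenase mRNAs had position 2 lowest in each profile.

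Which codon position is low depends on where a stop is placed. Moved 1 nt downstream, the lowest mean falls at position 3, and the median of position 3 minus the others becomes -0.0724 in icSHAPE in vivo and -0.0884 in icLASER in vivo. The dependence on the next base means that the offset between the modified and the scored nucleotide is not settled by these files, so the position numbers above apply to the nucleotides as deposited.

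In the overlap of MT-ATP8 and MT-ATP6, the same nucleotides had different scores in the 2 rows. Over the 10 nt printed above in capitals, the mean in icSHAPE in vivo was 0.641 in the MT-ATP6 row and 0.0864 in the MT-ATP8 row. It was 0.709 and 0.0807 in icSHAPE in vitro, 0.577 and 0.0243 in icLASER in vivo, and 0.677 and 0.0301 in icLASER in vitro. The MT-ATP6 row was higher at 9 of 10 positions with icSHAPE and at 10 of 10 with icLASER, and no position of the MT-ATP8 row reached 0.5.

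The A at nt 10 of MT-ATP6, nt 171 of MT-ATP8, scored 1.000 in 4 of 4 profiles in the MT-ATP6 row and 0.173, 0.122 and 0.048 in icSHAPE in vivo, icSHAPE in vitro and icLASER in vivo in the MT-ATP8 row. The A beside it, nt 11, again scored 1.000 in each profile in the MT-ATP6 row and peaked at 0.295 in the MT-ATP8 row. The order along the 10 nt was similar in the rows even so, with r of 0.722, 0.672, 0.928 and 0.870 over the 4 profiles, points that share bases and neighbours. These 10 nt lie at percentiles 98.1 to 98.7 of equally long, overlapping windows of the MT-ATP6 row and at 1.85 to 27.8 of those of the MT-ATP8 row.

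The position in the row moves with this gap. The 10 nt are the first scored of MT-ATP6 and the last scored of MT-ATP8, and in icSHAPE in vivo the first 10 scored nt had a median of 0.247 and the last 10 a median of 0.0540 over all transcripts. In icLASER in vitro the medians were 0.285 and 0.0185. The last 10 scored nt of the other members had means of 0.0254 to 0.154 in icSHAPE in vivo, so the 0.0864 of MT-ATP8 lay within their range, and the 0.641 of MT-ATP6 was above the first 10 of every other member, the nearest being 0.622 for MT-ATP8. Other profiles differed, since in icLASER in vivo the 0.0243 of MT-ATP8 was the lowest of the members, and in icLASER in vitro the 0.677 of MT-ATP6 was below the 0.793 of MT-CYB. What share of the gap comes from the ends of the rows was not tested.

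The start codon of MT-ATP6 is scored in the MT-ATP8 row alone. Its A, U and G had 0.004, 0.000 and 0.008 in icSHAPE in vivo and 0.008, 0.000 and 0.010 in icSHAPE in vitro. In icLASER in vivo they had 0.005, 0.000 and 0.050. The 16 scored nt of the overlap averaged 0.0582 in the MT-ATP8 row in icSHAPE in vivo, and the part of MT-ATP8 before the overlap averaged 0.282. These 16 nt, with the start codon, are the last scored of the row. Over all transcripts the last 50 scored nt differed from the middle by a median of -0.0656 in icSHAPE in vivo and 0.0169 in icLASER in vivo. The part of the row's end in these low scores was not tested, and they are not read as a trait of the start codon.

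The MT-ATP6 row scores 40 nt of the overlap, which averaged 0.361 in vivo and 0.318 in vitro with icSHAPE and 0.274 and 0.264 with icLASER. The rest of the mRNA averaged 0.203 and 0.206 with icSHAPE and 0.224 and 0.193 with icLASER. The 40 nt include the 10 nt at the start of the row, which averaged 0.641, 0.709, 0.577 and 0.677 in the same order. The higher mean is therefore not read as a trait of the overlap as a whole. Over the 40 nt, in vivo minus in vitro gave 0.0431 with icSHAPE, at percentile 76.2 of equally long, overlapping windows of the mRNA, and 0.0104 with icLASER, at percentile 32.8. With each reagent 21 positions were higher and 12 lower in vivo. In the MT-ATP8 row the difference was 0.00375 and -0.00269.

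The 10 nt at the start of the MT-ATP6 row went the other way, with -0.0680 for icSHAPE and -0.100 for icLASER, and 5 and 6 of the 10 positions were lower in vivo while 0 and 1 were higher. Further on in the overlap, the C at nt 36 of MT-ATP6 scored 1.000 in vivo and 0.281 in vitro with icSHAPE and 0.546 and 0.194 with icLASER. The stop codon of MT-ATP8, nt 44 to 46 of MT-ATP6, was low, with 0.198, 0.016 and 0.010 in icSHAPE in vivo.

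Read in the MT-ATP6 frame, the overlap had mean icSHAPE in vivo scores of 0.419, 0.267 and 0.392 at codon positions 1, 2 and 3. In the MT-ATP8 frame the same values fall at positions 3, 1 and 2, so the low class is position 2 of MT-ATP6. Only 13 or 14 nt make up each class. The overlap is the longest of the sense strand, the others being 1 nt between MT-ATP6 and MT-CO3 and 7 nt between MT-ND4L and MT-ND4.

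Predicted pairing separated icSHAPE scores. RNAplfold with windows of 200 nt and a span of 150 nt left 58.5% of scored nucleotides of MT-CO1 unpaired, at a probability of at least 0.5, and 80.7% of MT-ATP8. In icSHAPE in vivo, unpaired and paired nucleotides averaged 0.260 and 0.132 in MT-CO1, 0.260 and 0.0935 in MT-CO2, 0.262 and 0.145 in MT-CO3, 0.280 and 0.157 in MT-CYB, 0.222 and 0.185 in MT-ATP6, and 0.299 and 0.103 in MT-ATP8. Unpaired nucleotides were higher in 6 of 6 in vivo and in vitro, with median gaps of 0.125 and 0.148.

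For icLASER the gap was close to 0, with medians of -0.00716 in vivo and -0.0355 in vitro, and 2 and 1 of the 6 mRNAs were higher at unpaired nucleotides. MT-ATP6 had the lowest, -0.0908 in vivo and -0.133 in vitro. Against the mean of the same scored and next base, an adjustment chosen after the data had been seen, the icLASER gap was 0.0674 in vivo and 0.0592 in vitro and the icSHAPE gap 0.0721 and 0.0855. After this adjustment 5 of 6 mRNAs were higher at unpaired nucleotides in both icLASER profiles, the exception being MT-ATP6, and with icSHAPE 6 of 6 were higher in vivo and 5 of 6 in vitro, where MT-ATP6 had -0.00631. Moved 1 nt downstream, the scores gave an adjusted icLASER gap of -0.00947 in vivo and -0.0192 in vitro, so its sign depends on where a stop is placed.

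Over 33 nuclear subunit mRNAs, of which a median of 41.3% of scored nucleotides were predicted unpaired, the gap before adjustment was 0.0907 in icSHAPE in vivo and -0.000543 in icLASER in vivo. The 7 NADH dehydrogenase mRNAs had medians of 0.107 and -0.00907, and 6 of them had a positive icSHAPE gap in vivo, MT-ND6 having -0.00995.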

How the data were processed

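The 14 K562 libraries were deposited as 4 profiles, 1 for each reagent and condition, with replicates and controls pooled. The authors aligned reads to the Ensembl release 88 GRCh38 transcriptome, with Trimmomatic and Bowtie2 named in the submitters' processing notes without versions, and ran the icSHAPE pipeline. Per transcript they deposited an RPKM, which is normalized to length and library size, and per nucleotide an enrichment score from 0 to 1. The authors' files give no counts, so the depth at each position is unknown and no interval covers it.

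Names, sequences and reading frames came from GENCODE 44 on GRCh38: 20111 of 20512 identifiers matched, 15325 of them in length. Means, shares and correlations used transcripts with at least 100 scored positions. Gene lists, markers and the named windows, nearest genes and nuclear copies followed fixed rules: all 6 members, the lowest and highest 30 nt icSHAPE window of each member of at least 500 nt, the genes nearest in mean score (not reported here), every nuclear copy with a row, and list members only at extremes. Single nucleotides within windows and the overlap were picked after their values were seen. Members, lists and tests were chosen with earlier results of these data known. Nuclear copies were aligned with Biopython 1.88, pairing was predicted with ViennaRNA 2.7.2, and the rest used Python 3.11.15, numpy 2.4.6, pandas 2.3.3, scipy 1.17.1 and matplotlib 3.10.9. Codon means, period, base adjustment and correlation were tested on simulated data. The alternatives tried were medians, other levels for a reactive score, A and G alone, rescaled profiles, scores moved by 1 nt, base adjustment, another folding window, rank correlation and an RPKM minimum. Read assignment between near-identical copies could not be examined.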

Additional observations from a re-analysis of the deposited data

How the results depend on the processing

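The profiles hold no replicate error or read depth, and the cause of each change below was not tested. No paired analysis was possible because each profile pools its replicates, and leaving out 1 replicate was not possible for the same reason. Of 74 values under alternatives, 36 kept their direction and stayed within the spread, 25 moved further and 13 changed sign. With the median over positions, the members' mean scores became 0.0905, 0.0970, 0.129 and 0.101 in icSHAPE in vivo, icSHAPE in vitro, icLASER in vivo and icLASER in vitro, and the icLASER difference 0.01. Dividing each profile by its own mean over all transcripts turned the icSHAPE difference to -0.150 and raised that of icLASER to 0.144, which was 0.00943 over A and G alone. Reactive shares in the same order of profiles were 25.1%, 25.3%, 25.8% and 22.5% for scores of at least 0.3 and 7.82%, 7.46%, 7.44% and 7.01% for at least 0.8. Codon position 3 minus the others was -0.0724, -0.0494, -0.0884 and -0.0636 with scores moved downstream and 0.0521, 0.0408, 0.0573 and 0.0528 moved upstream. It was 0.0307 in icLASER in vitro against the mean of the same base, and 0.0330, 0.0202 and 0.0189 in icSHAPE in vivo, icSHAPE in vitro and icLASER in vitro against that of the scored and next base, which was chosen after seeing the data. The icSHAPE RPKM ratio was 1.46 after division by the median ratio of all transcripts, and 19.9% of transcripts of at least 10 RPKM passed 1.5 in icLASER. The icLASER overlap difference was -0.00269 in the MT-ATP8 row. The icSHAPE in vivo to in vitro correlation was 0.895 over A and G, and that of icLASER 0.825 by Spearman's rho. The gap between unpaired and paired nucleotides was 0.0293 in vivo and 0.00893 in vitro for icLASER with scores moved downstream, and 0.0674, 0.0592 and, for icSHAPE in vitro, 0.0855 against the scored and next base.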
